A study of Homo sapiens with 9 samples.

Results

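Conditioned medium (CM) from the epiploic adipose tissue-dependent colorectal cancer microphysiological system (CRC-MPS) was compared with CM from adipose stromal cells (ESC) by the RNA of the cancer cells that received it. The members were all named genes of the deposited table for this pair of media, 2831 of the 11664 distinct named genes that the 3 tables of the series hold. That table lists a gene only where the study's own test of this same pair gave an unadjusted p under 0.05. Every difference below is therefore a description of genes already selected for a difference, and genes that missed the limit are not among the members. For those of them that both control tables list, levels under the 2 media can still be set side by side across those tables.

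The recipient cells were HT29, an established human colorectal adenocarcinoma line of epithelial type. There were 3 libraries from cells treated for 24 h with ESC CM and 3 from cells treated for 24 h with CRC-MPS CM. Another 3 control libraries came from cells grown in complete medium and then serum starved for 24 h. The labels describe the CRC-MPS group only as CM of adipose tissue. By the study's methods the system held HT29-GFP cells and epiploic adipose tissue (EPAT, the fat appendages of the colon) between sheets of ESC, and the CM used was that of the system with EPAT from obese donors, a state the labels do not give. The medium for comparison is called that of ESC alone, but the study also describes a control in which ESC sheets enclose HT29-GFP cells without EPAT. Whether the media differ by EPAT only or by EPAT and cancer cells is therefore not settled, and in the second case their shares cannot be told apart. The system was kept in medium with serum, and its medium was diluted with serum-free medium before use. Whether the ESC medium was handled in the same way, and how many tissue donors stand behind each medium, could not be learned from the labels or methods. The sample titles call the libraries biological replicates but do not say whether separate cultures or separate batches of CM lie behind them. The p-values measure the spread between these libraries.

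A secreted medium can reach a cancer cell through cytokines, growth factors, lipids and metabolites. Cytokines of the IL-6 family act through STAT3, which induces its own inhibitor SOCS3 and acute phase proteins. Type I and III interferons act through STAT2 and IRF9, which bind as part of a complex to an interferon-stimulated response element in promoters. Load on the endoplasmic reticulum acts through ERN1, ATF6 and PERK, and oxidants and electrophiles act through NRF2. These programs leave a trace in the RNA of named target genes, which is how the listed genes are grouped here.

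Levels are TPM (transcripts per fixed total of transcripts), a scale that corrects for transcript length. With CRC-MPS CM 1590 genes had a higher mean and 1241 a lower mean, and the median log2 ratio of mean TPM was 0.15. Most differences were small, with 1973 genes (69.7%) within 1.25-fold. The 3 libraries of one medium did not overlap the 3 of the other in 1800 genes (63.6% of those listed). CRC-MPS CM gave the higher values in 1041 (36.8%) and the lower in 759 (26.8%). A non-overlap together with a ratio of means over 1.5 was met by 212 higher genes (7.49%) and 76 lower genes (2.68%), and 138 and 54 of these lay under 5 TPM. For 1 gene, 3 libraries against 3 allow an exact permutation p of 0.1 at the lowest. Limma was run on log2(TPM + 1) and adjusted over the 11664 distinct named genes of the 3 tables. Each of these tables was itself cut at an unadjusted p of 0.05, so genes that missed all 3 limits are not counted. Counting them would raise the adjusted p-values by an amount that is not known, and calls near the limit could be lost. A gene was called where the adjusted p was under 0.05 and the ratio of means was over 1.5. By this rule 56 genes rose (1.98%) and 16 fell (0.565%) with CRC-MPS CM, and none of the 72 had overlapping libraries. Some genes outside the table did not overlap either. Of 7049 genes that both control tables list and this one does not, 541 were higher and 415 lower without overlap (13.6%) when levels were set across tables, 46 and 53 of them past 1.5-fold, and the median log2 ratio was 0.02. Over all 8664 genes of both control tables, listed here or not, 22.8% did not overlap and the median was 0.02. How near a listed gene lay to the limit is not given, since the study's own p-values were not used. The percentages are the background for each count of members below, and since the same contrast selected the genes nothing is read from a list's share.

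The split of directions depended on scaling. When the libraries were rescaled by the median of ratios over the listed genes, the median log2 ratio moved by -0.0956, to 0.06. The non-overlapping genes then numbered 716 higher and 997 lower, so the more frequent direction turned. The scale factors came from genes selected on this same contrast, so more lower genes follow from the shift itself. Over all 8664 genes of both control tables the median log2 ratio was only 0.02, and no factor was taken from them. The turn is therefore no check of the direction as deposited. Past 1.5-fold there were 173 higher and 107 lower, and the called genes were 34 higher and 18 lower. Higher genes made up 73.6% of those past 1.5-fold as deposited and 61.8% after rescaling, and 77.8% and 65.4% of the called genes.

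**Figure D1:**
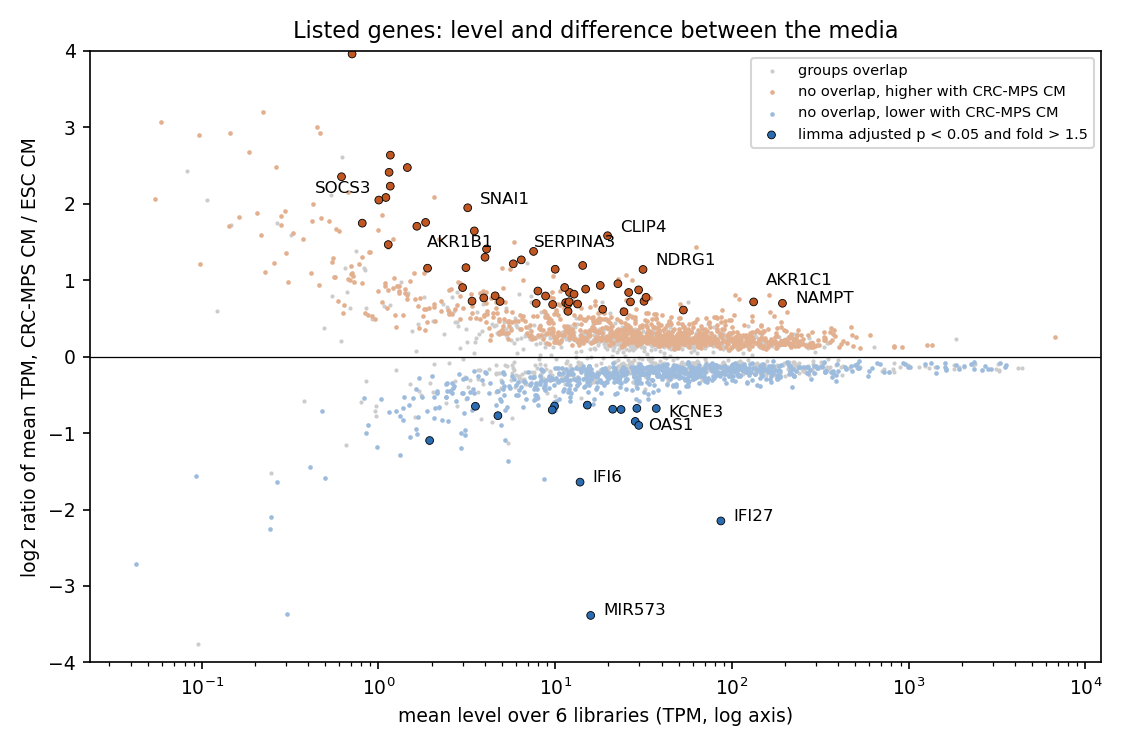
Each point is a listed gene, placed by its mean level over 6 libraries (TPM, log axis) and the log2 ratio of mean TPM between CRC-MPS CM and ESC CM, with genes at 0 in a whole group and 7 genes beyond the axis left out. Most of the 2831 genes lie within 1.25-fold, while the called genes, outlined, include IFI27 and IFI6 far below 0 and SNAI1 and SOCS3 far above it.

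Base composition moved with the direction of change. Non-overlapping genes that were higher had a median transcript GC content of 43.3%, and those that were lower 55.8%. When the listed genes were ordered by GC content and cut into 5 equal classes, 95.1% of the lowest class had a higher mean with CRC-MPS CM, against 21.4% of the highest. The libraries did not share this trend equally. From the lowest to the highest class, the median deviation from a gene's mean over the 6 libraries went from 0.17 to -0.11 (log2) in CRC-MPS CM replicate 2 and from 0.21 to -0.16 in replicate 3, but from -0.04 to 0.03 in replicate 1. Over genes of both control tables that are not listed for this comparison, whose levels had to be set across tables, replicates 2 and 3 again sloped down (0.09 to -0.04 and 0.10 to -0.07) and replicate 1 sloped up (-0.07 to 0.06). ESC CM libraries sloped up slightly there, from between -0.05 and -0.02 to between 0.01 and 0.02. The part of base composition in any single gene's difference was not tested. Genes past 1.5-fold were less split by GC, with medians of 48.6% for higher and 54.1% for lower genes. Removing the GC trend, estimated on the genes not listed here, left 197 higher and 77 lower genes past 1.5-fold.

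**Figure D2:**
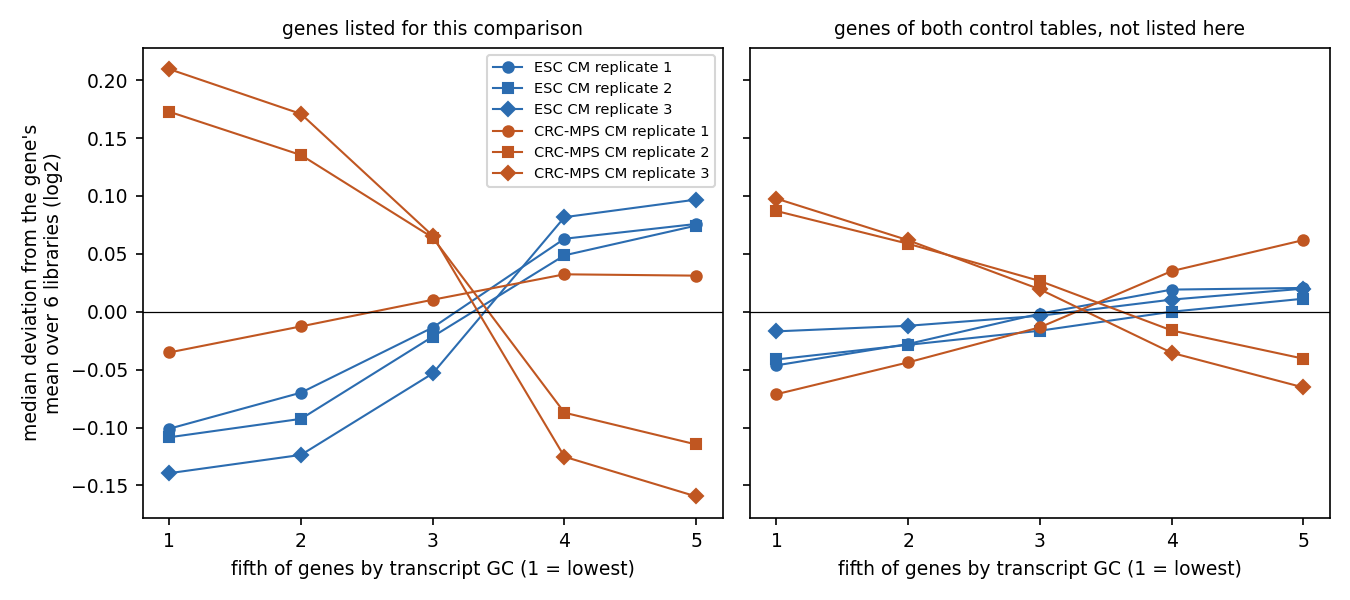
The median deviation of a library from each gene's mean over 6 libraries (log2) is drawn for 5 classes of genes by transcript GC content, for listed genes on the left and for genes of both control tables not listed here on the right. CRC-MPS CM replicates 2 and 3 lie at 0.17 and 0.21 in the lowest listed class and at -0.11 and -0.16 in the highest, while replicate 1 stays within 0.04 of 0.

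The median coefficient of variation over listed genes was 5.30% among ESC CM libraries and 8.73% among CRC-MPS CM libraries. CRC-MPS CM replicate 1 was the most distant from its group, with 85 genes over 0.5 (log2) from the mean of the other libraries of the group. ESC CM replicate 3 was next with 73, against 24 to 38 in the rest. Without CRC-MPS CM replicate 1 the calls numbered 173 higher and 72 lower. Without any other single library they numbered between 17 and 32 higher and between 3 and 5 lower. Of the 72 calls, 17 held whichever library was left out, among them IFI27, IFI6, SNAI1, SOCS3, SERPINA3, GADD45B, AKR1B1 and STEAP1. Those 17 kept both the adjusted p and the fold limit. For the other called genes named below, the number of the 6 refits, each without 1 library, with an adjusted p under 0.05 is given beside the gene. There a call is said to hold by the adjusted p alone, whatever the fold. Where the number is 1, the refit is that without CRC-MPS CM replicate 1.

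IFI27 and IFI6, both interferon targets, had the lowest ratios of the non-overlapping protein-coding genes above 5 TPM. Of 49 interferon-stimulated genes in the list, 19 were listed, 16 lower and 3 higher with CRC-MPS CM, with a median log2 ratio of -0.35 against 0.15 over all listed genes. Libraries did not overlap in 11 of the lower and 2 of the higher genes, and 5 fell and 1 rose by the limma rule. In bulk RNA a lower level can mean fewer cells that express a gene or less RNA per cell, and these cannot be told apart.

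IFI27, an interferon-induced protein of mitochondria and the nuclear envelope (chr14:94104836-94116698 on hg38), measured 139, 138 and 147 TPM with ESC CM and 34.4, 32.5 and 28.7 TPM with CRC-MPS CM. The groups lay far apart, with little spread within either. The mean fell 4.44-fold, and the limma difference was -2.12 ± 0.08 (log2, SE; adjusted p = 6.62e-06). IFI6, an interferon-induced regulator of apoptosis, measured 24.1, 19.8 and 19 TPM with ESC CM and 8.47, 5.38 and 6.3 TPM with CRC-MPS CM, and its mean fell 3.12-fold (limma adjusted p = 0.00473). The highest library of the CRC-MPS CM group, replicate 1, was still below the lowest of the ESC CM group.

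The oligoadenylate synthetases sense double-stranded RNA and activate RNase L. OAS1 measured 34.3, 34.3 and 40.9 TPM with ESC CM and 24.1, 17.4 and 19.4 TPM with CRC-MPS CM, a fall of 1.8-fold (limma adjusted p = 0.0267). OAS3 measured 28.5, 28.3 and 30.6 TPM with ESC CM and 19.1, 18.7 and 16.4 TPM with CRC-MPS CM, a fall of 1.62-fold (limma adjusted p = 0.0138). OAS2 was low at 1.35, 2.4 and 1.91 TPM with ESC CM and 0.639, 0.832 and 0.853 TPM with CRC-MPS CM, 2.44-fold lower without a call (limma adjusted p = 0.0674). All 3 synthetases were thus lower in every CRC-MPS CM library than in any ESC CM library. IRF9, the DNA-binding partner of STAT2, measured 33.5, 40.6 and 32.9 TPM with ESC CM and 22.5, 20.9 and 23.5 TPM with CRC-MPS CM and fell 1.6-fold (limma adjusted p = 0.0267).

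The calls for OAS1, OAS3 and IRF9 were lost when any single library other than CRC-MPS CM replicate 1 was left out (highest adjusted p between 0.0796 and 0.120), while those for IFI27 and IFI6 were kept in all 6 such fits. ISG15, a ubiquitin-like modifier, measured 137, 135 and 136 TPM with ESC CM and 111, 100.2 and 109 TPM with CRC-MPS CM, which is 1.27-fold lower and under the fold limit. LGALS3BP, a secreted binding protein of galectins, was 1.25-fold lower. ISG20, an exonuclease that degrades RNA, was the exception that rose, by 1.61-fold, with 11.4, 10.8 and 8.65 TPM with ESC CM and 16.6, 16.7 and 16.4 TPM with CRC-MPS CM (limma adjusted p = 0.0379), and it was named after its values were seen. The ISG20 call held in 1 of 6 refits (highest adjusted p = 0.149, without CRC-MPS CM replicate 2). IFI44L, also named after its values were seen, was 2.87-fold lower at 0.363, 0.53 and 0.207 TPM with ESC CM and 0.256, 0.0553 and 0.072 TPM with CRC-MPS CM, and its groups overlapped. Without CRC-MPS CM replicate 1, by far the highest of its group, IFI44L was 5.76-fold lower.

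The promoters of these genes are shown because a majority of the interferon group carries a known regulatory sequence. Windows ran from 250 bases before to 50 bases after each start site in RefSeq (GRCh38.p14), and 15 of the 19 listed genes matched a window by symbol. The letters GAAANNGAAA, a core of the interferon-stimulated response element, were searched on both strands and were present in 10 of the 15 windows (66.7%), against 3.65% of 27305 promoters and 3.30% of the 2184 listed genes with a window. The list was written from known interferon targets, so the match describes the list and says nothing of these media. In the lines below the capitals mark the matched letters, on either strand, and each stretch reads 5′ to 3′ along the gene.
IFI27 (chr14:94110603-94110662, plus strand, match at -108 to -99): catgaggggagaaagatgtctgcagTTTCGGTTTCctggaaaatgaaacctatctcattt
IFI6 (chr1:27672273-27672332, minus strand, match at -115 to -106): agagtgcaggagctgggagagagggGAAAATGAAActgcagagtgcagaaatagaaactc
OAS3 (chr12:112938306-112938365, plus strand, match at -143 to -134): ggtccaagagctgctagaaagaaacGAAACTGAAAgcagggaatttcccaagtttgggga
ISG15 (chr1:1013365-1013424, plus strand, match at -107 to -98): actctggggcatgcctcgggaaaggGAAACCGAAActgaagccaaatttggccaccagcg

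The IFI27 stretch holds a second match on the other strand at -95 to -86, and IFI6 has 3 matches in its window. The STAT core TTCNNNGAA, searched the same way, was in 7 of the 15 windows against 7.88% of all promoters. In IFI27 it sits at -101 to -93, overlapping both matches of the response element, and in OAS1 and IRF9, which lack the longer letters in these windows, it is at -168 to -160 and at -63 to -55.
OAS1 (chr12:112906769-112906827, plus strand): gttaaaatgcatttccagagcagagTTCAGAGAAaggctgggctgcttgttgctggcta
IRF9 (chr14:24161177-24161235, plus strand): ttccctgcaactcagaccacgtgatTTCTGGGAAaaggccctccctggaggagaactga

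Control levels are set beside those of the media for these genes. IFI27 averaged 696 TPM over 3 control libraries (range 481 to 817), 141 ± 4.96 TPM (SD, n = 3) with ESC CM and 31.9 ± 2.93 TPM with CRC-MPS CM. OAS1 averaged 184, 36.5 ± 3.81 and 20.3 ± 3.48 TPM in the same order, and IFI6 162, 21 ± 2.77 and 6.72 ± 1.59 TPM. The order control, ESC CM, CRC-MPS CM thus held for each of these, with no overlap between neighbouring groups. Control cells were serum starved, while the medium of the system had held serum before dilution. In every comparison with control, serum and secreted factors therefore cannot be told apart. The control libraries come from other tables than the media comparison, and a library that stands in more than 1 table differed between them by a median of at most 0.567%.

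**Figure D3:**
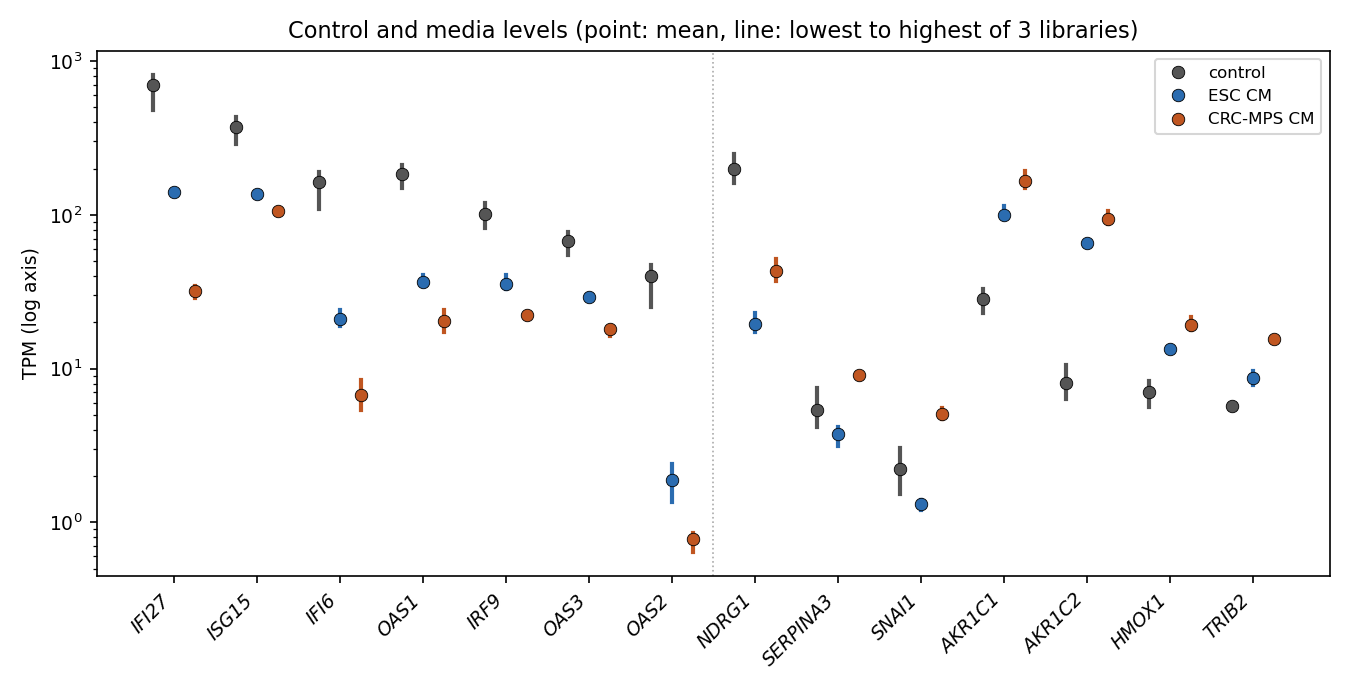
Points are means and lines run from the lowest to the highest of 3 libraries (TPM, log axis) for control, ESC CM and CRC-MPS CM, with control taken from the table of CRC-MPS CM against control. The 7 interferon targets on the left descend from control to CRC-MPS CM, AKR1C1, AKR1C2, HMOX1 and TRIB2 on the right ascend, and NDRG1, SERPINA3 and SNAI1 between them are lowest with ESC CM.

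Acute phase genes and targets of IL-6 and STAT3 were higher. Of 30 members 11 were listed and all 11 had a higher mean with CRC-MPS CM (median log2 ratio 0.39), 8 without overlap and 2 called. SOCS3, the feedback inhibitor of JAK kinases, measured 0.475, 0.506 and 0.282 TPM with ESC CM and 1.57, 1.99 and 1.79 TPM with CRC-MPS CM. It rose 4.23-fold from a very low level (limma difference 0.97 ± 0.11, log2, SE; adjusted p = 0.00749). SERPINA3, the acute phase inhibitor alpha-1-antichymotrypsin, measured 4.02, 4.18 and 3.15 TPM with ESC CM and 8.81, 9.17 and 9.29 TPM with CRC-MPS CM and rose 2.4-fold (limma adjusted p = 0.00473). The acute phase transcription factors CEBPB and CEBPD were 1.42-fold and 1.42-fold higher without overlap, and SERPINA1, alpha-1-antitrypsin, was 1.3-fold higher at 424, 413 and 396 TPM with ESC CM and 583, 518 and 507 TPM with CRC-MPS CM. The transducer IL6ST and STAT3 itself were 1.3-fold and 1.24-fold higher, both named after their values were seen. In 10 of these genes with a promoter window the STAT letters were in none, which says only that they are not in these windows.

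NF-kB feedback genes and chemokines moved the same way, with 11 of 28 listed, all 11 higher (median log2 ratio 0.57), 10 without overlap and 1 called. ICAM1, the adhesion receptor for leukocyte integrins, measured 3.67, 3.87 and 3.52 TPM with ESC CM and 6.82, 5.84 and 5.56 TPM with CRC-MPS CM and rose 1.65-fold (limma adjusted p = 0.0421), a call that held in 1 of 6 refits (highest adjusted p = 0.157, without ESC CM replicate 3). The cytokines IL1A and IL1B stood 3.98-fold and 3.08-fold higher, but IL1A measured only 0.325, 0.133 and 0.0529 TPM with ESC CM and 0.365, 0.587 and 1.08 TPM with CRC-MPS CM, and neither was called. Without ESC CM replicate 1 the IL1A ratio was 7.31. Both were among the sparsest genes named here, with a mean normalized count of 15.9 for IL1A and 8.35 for IL1B. TNFAIP3, the deubiquitinase A20, was 1.69-fold higher with 1.83, 1.36 and 0.656 TPM with ESC CM and 2.17, 2.31 and 2.02 TPM with CRC-MPS CM, and NFKBIA, the inhibitor of NF-kB, was 1.25-fold higher. Of 15 complement genes 5 were listed (4 higher and 1 lower, median log2 ratio 0.58), and limma called none, with an unadjusted p under 0.05 for all 5. Factor B, encoded by CFB, measured 2.54, 2.41 and 3.12 TPM with ESC CM and 6.33, 3.61 and 4.46 TPM with CRC-MPS CM, 1.78-fold higher, and CD55, which protects cells from complement, was 1.497-fold higher at 149.6, 134 and 111 TPM with ESC CM and 165, 207 and 219 TPM with CRC-MPS CM. NLRC5, the activator of MHC class I genes, was 2.89-fold higher, while its target B2M was 1.1-fold higher.

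SNAI1 and TRIB2 were among the genes the study itself followed up by qPCR, so their direction here is no independent evidence. Of those 6 genes 5 were listed, 4 higher and 1 lower (median log2 ratio 0.51), of which SNAI1 and TRIB2 rose and OAS1 fell, and CENPE, a mitotic kinesin, was not listed. SNAI1, a repressor of E-cadherin that drives epithelial-mesenchymal transition (chr20:49982999-49988886), measured 1.4, 1.2 and 1.36 TPM with ESC CM and 5.54, 5.03 and 4.67 TPM with CRC-MPS CM. Its mean rose 3.85-fold (limma difference 1.39 ± 0.10, log2, SE; adjusted p = 0.0013), and the 3 libraries of each medium were close to each other. TRIB2, a pseudokinase that targets C/EBP and FOXO factors, measured 7.81, 9.67 and 8.45 TPM with ESC CM and 15.2, 15.7 and 15.5 TPM with CRC-MPS CM and rose 1.79-fold (limma adjusted p = 0.0121), with the call held in 3 of 6 refits (highest adjusted p = 0.0636, without CRC-MPS CM replicate 2). NNMT, which methylates nicotinamide, measured 77, 73.7 and 63.4 TPM with ESC CM and 105, 101 and 98.7 TPM with CRC-MPS CM, a 1.43-fold higher mean with no overlap that stayed under the fold limit. BCCIP, a partner of BRCA2 and p21, was 1.12-fold higher, with 161, 174 and 178 TPM with ESC CM and 181, 197 and 199.5 TPM with CRC-MPS CM.

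The wider epithelial-mesenchymal list did not follow SNAI1 in size. Of 27 members 5 were listed, all higher (median log2 ratio 0.23), and SNAI1 alone was called. The epithelial splicing factor ESRP1, whose loss marks mesenchymal cells, was 1.12-fold higher, and its groups overlapped. CDH1 and VIM were not listed for this comparison.

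**Figure D4:**
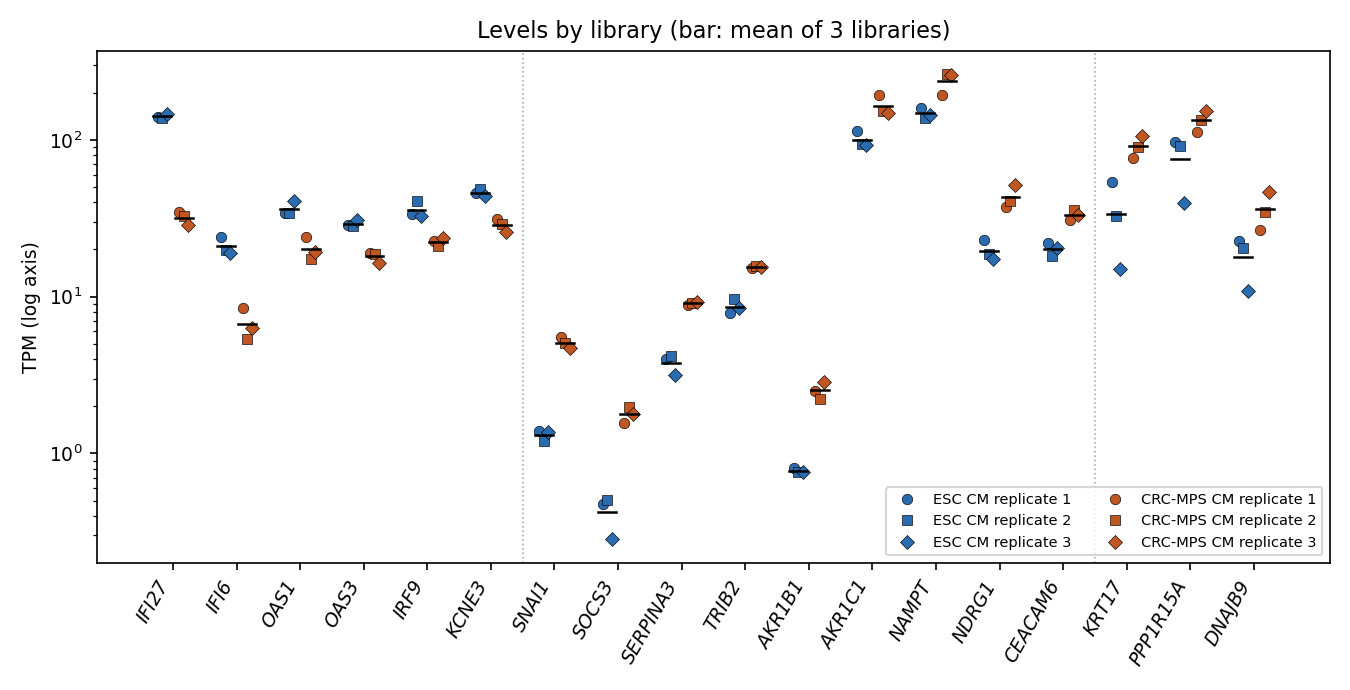
Levels of 18 genes in each library (TPM, log axis), with bars at the mean of 3 libraries and 1 symbol shape for each replicate number. The first 6 genes are lower and the next 9 higher in every CRC-MPS CM library, and the last 3, KRT17, PPP1R15A and DNAJB9, show ESC CM replicate 3 well below the other ESC CM libraries.

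Immediate-early genes and ERK feedback genes were higher as well. Of 30 AP-1 and immediate-early genes 14 were listed and all 14 had a higher mean (median log2 ratio 0.35), 11 without overlap and 2 called. FOSB, an AP-1 subunit, measured 1.84, 2.35 and 1.61 TPM with ESC CM and 5.004, 4.16 and 3.81 TPM with CRC-MPS CM and rose 2.24-fold (limma adjusted p = 0.0267). KLF4, a zinc finger factor of differentiated gut epithelium, measured 8.79, 8.68 and 6.19 TPM with ESC CM and 12.7, 14.9 and 16.7 TPM with CRC-MPS CM and rose 1.87-fold (limma adjusted p = 0.0421). The FOSB call held in 2 of 6 refits (highest adjusted p = 0.0948, without ESC CM replicate 3) and that of KLF4 in 1 (highest adjusted p = 0.156, without CRC-MPS CM replicate 2). GADD45B, a stress-induced activator of p38 signaling, rose 2.32-fold, with 3.86, 3.79 and 2.82 TPM with ESC CM and 9.14, 7.52 and 7.63 TPM with CRC-MPS CM (limma adjusted p = 0.0121). Of 22 ERK feedback genes 6 were listed, all higher without overlap (median log2 ratio 0.42), none of them called by limma though all 6 had an unadjusted p under 0.05. IER3 and PHLDA1 among them also stand in the AP-1 list, and IER3 in the NF-kB list as well, so these lists are not separate sets of genes. DUSP5, a nuclear ERK phosphatase, measured 21.7, 18.6 and 8.94 TPM with ESC CM and 29.8, 35.4 and 37.6 TPM with CRC-MPS CM, 2.09-fold higher, and ERRFI1, an inhibitor of the EGF receptor, measured 136, 157 and 60.7 TPM with ESC CM and 163, 212 and 246 TPM with CRC-MPS CM. Neither was called, and in both ESC CM replicate 3 was far below its group. Without that library the median log2 ratio of the ERK feedback list was 0.27 and that of the AP-1 list 0.27. ERRFI1 is a member of the EGF receptor list, not of the ERK feedback list. Of its 16 members 8 were listed, 5 higher and 3 lower (median log2 ratio 0.22). The receptors went both ways, with EGFR among the higher genes and ERBB2 and ERBB3 among the lower. Libraries did not overlap in 3 of the higher and 1 of the lower genes. The ligands EGF, at a mean of only 1.31 TPM, and TGFA were 1.78-fold and 1.18-fold higher.

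The letters TGANTCA, the AP-1 site, were in 19 of 145 promoter windows of non-overlapping genes higher past 1.5-fold (13.1%), against 7.76% of all promoters and 5.82% of the listed genes with a window. In the same windows the interferon response element was in 4.14% (3.65% of all promoters), STAT in 6.21% (7.88%) and TGACGTCA in 1.38% (1.98%). TGACNNNGCA was in 5.52% (3.26%), and the stress elements ERSE and ERSE-II, described below, in 1.38% (0.0806%) and 0% (0.0549%). In the AP-1 and immediate-early list the AP-1 letters were in 0 of 8 windows. None of these shares was tested. A laminin and a mucin of the set higher past 1.5-fold, both described below, are shown as examples with the match in capitals. LAMA3 has a further match in its window.
LAMA3 (chr18:23872870-23872926, plus strand): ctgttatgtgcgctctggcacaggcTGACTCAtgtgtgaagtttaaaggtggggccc
MUC17 (chr7:101019963-101020019, plus strand): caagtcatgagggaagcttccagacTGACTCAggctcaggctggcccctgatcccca

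Every listed gene of the unfolded protein and amino acid responses had a higher mean. Of 37 ATF4 and unfolded protein response genes 23 were listed, all 23 with a higher mean (median log2 ratio 0.39) and 17 without overlap, but none was called by limma, whose unadjusted p was under 0.05 for 21 of the 23. DNAJB9, a chaperone of the endoplasmic reticulum, measured 22.8, 20.4 and 10.9 TPM with ESC CM and 26.8, 34.8 and 46.7 TPM with CRC-MPS CM, 2.002-fold higher. PPP1R15A, which restores translation by dephosphorylating eIF2alpha, measured 96.8, 91.3 and 39.8 TPM with ESC CM and 113, 134 and 153 TPM with CRC-MPS CM, 1.75-fold higher. Both were lowest in ESC CM replicate 3 and highest in CRC-MPS CM replicate 3, with a wide spread on each side. ERN1, the stress sensor IRE1 and not a member of the list, was 2.07-fold higher at 7.9, 6.88 and 4.22 TPM with ESC CM and 10.3, 14.3 and 14.8 TPM with CRC-MPS CM, and the amino acid transporter SLC38A2 was 1.499-fold higher. HERPUD1, which helps remove misfolded proteins, was 1.45-fold higher at 126, 118 and 73.5 TPM with ESC CM and 130.3, 153 and 178 TPM with CRC-MPS CM. Without ESC CM replicate 3 the median log2 ratio of the list was 0.32, with the same 23 higher and 17 non-overlapping genes by count. After removal of the GC trend 15 genes of the list were higher without overlap, and after rescaling 13. In control, PPP1R15A averaged 179 TPM, ERN1 18.7 TPM and HERPUD1 184 TPM, each above the mean of either medium.

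Some promoters of this group carry the endoplasmic reticulum stress elements. ERSE-II (ATTGGNCCACG) was in 3 of 22 windows (13.6%), those of SDF2L1, HERPUD1 and HYOU1, against 0.0549% of all promoters, and ERSE (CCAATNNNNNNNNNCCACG) was in 3 different windows, those of XBP1, HSPA5 and HSP90B1, against 0.0806%. HSP90B1, the chaperone GRP94, had the lowest ratio of the 23 listed members, 1.09, and has a match on each strand. Over all listed genes with a window, ERSE-II was in 0.229% and ERSE in 0.412%. The list was written from known genes of these responses, so the matches describe the list and say nothing of these media. The capitals mark the match.
HERPUD1 (chr16:56932000-56932060, plus strand): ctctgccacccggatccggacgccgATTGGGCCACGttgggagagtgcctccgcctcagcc
HSP90B1 (chr12:103930191-103930259, plus strand): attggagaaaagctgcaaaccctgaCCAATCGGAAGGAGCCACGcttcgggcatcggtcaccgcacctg

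Antioxidant and aldo-keto reductase genes were mostly higher. Of 30 NRF2, glutathione and aldo-keto reductase genes 19 were listed, 18 higher and 1 lower (median log2 ratio 0.40), and 17 of the higher genes had no overlap. AKR1B1, aldose reductase, measured 0.802, 0.766 and 0.756 TPM with ESC CM and 2.49, 2.23 and 2.86 TPM with CRC-MPS CM and rose 3.26-fold (limma adjusted p = 0.00473). AKR1C1, which reduces progesterone and lipid aldehydes, measured 114, 94.3 and 93.3 TPM with ESC CM and 194, 152 and 149 TPM with CRC-MPS CM and rose 1.64-fold (limma adjusted p = 0.0334), with the call held in 2 of 6 refits (highest adjusted p = 0.137, without ESC CM replicate 2). Its lowest ratio in a refit was 1.498, just under the fold limit. Its near-identical neighbour AKR1C2 was 1.43-fold higher at 65.1, 64 and 67.6 TPM with ESC CM and 105, 88.7 and 86.6 TPM with CRC-MPS CM, and reads of such close copies may be divided between them by the authors' quantification. HMOX1, heme oxygenase, measured 14, 12.9 and 13.3 TPM with ESC CM and 21.5, 17.8 and 18.2 TPM with CRC-MPS CM, 1.43-fold higher, and FTH1, the ferritin heavy chain, was 1.2-fold higher at 6483, 5858 and 6029.8 TPM with ESC CM and 7234, 7325 and 7448 TPM with CRC-MPS CM. The single lower member was GPX4, the lipid peroxide reductase, which was 1.11-fold lower and named after its values were seen. AKR1C1 averaged 28.2 TPM in control and AKR1C2 8.04 TPM, both below either medium. After removal of the GC trend 17 members were still higher without overlap.

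**Figure D5:**
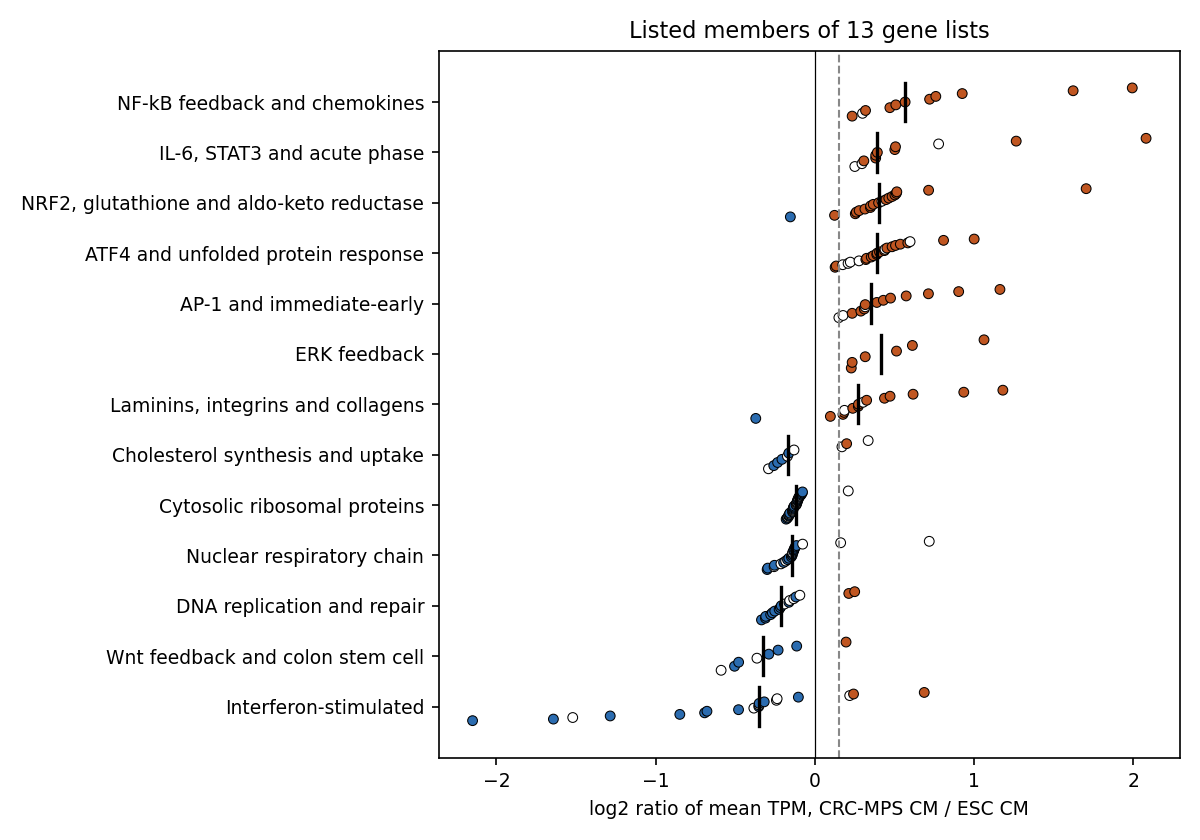
Each point is a listed gene of a list, placed by its log2 ratio of mean TPM, filled orange or blue where the libraries did not overlap (higher or lower with CRC-MPS CM) and white where they did. Short bars are list medians, from 0.57 for NF-kB feedback and chemokines to -0.35 for interferon-stimulated genes, and the dashed line is the median of all listed genes, 0.15.

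Among extracellular matrix and adhesion genes 15 of 38 were listed, 14 higher and 1 lower (median log2 ratio 0.27), 12 of the higher without overlap. Limma called none, with an unadjusted p under 0.05 for 11 higher and 1 lower gene. LAMA3, a laminin chain of epithelial basement membrane, was 1.53-fold higher with 22.1, 18.6 and 15.6 TPM with ESC CM and 28.4, 26.7 and 31.4 TPM with CRC-MPS CM. COL6A1 was 2.27-fold higher, but at 0.551, 0.345 and 0.386 TPM with ESC CM and 1.39, 0.713 and 0.804 TPM with CRC-MPS CM it was barely present. JAG1, a Notch ligand, measured 19.5, 14.7 and 10.8 TPM with ESC CM and 21.2, 31.3 and 38.5 TPM with CRC-MPS CM, 2.02-fold higher without a call. Of 27 Notch genes 3 were listed. KRT17, a keratin of stressed and basal epithelium, measured 54, 32.7 and 15 TPM with ESC CM and 76.9, 90.5 and 107 TPM with CRC-MPS CM. Its groups did not overlap and its mean was 2.69-fold higher, while the ESC CM libraries spread widely and limma made no call (adjusted p = 0.0914). The abundant keratins of simple epithelium KRT8 and KRT18 were 1.11-fold and 1.14-fold lower with overlapping groups, and KRT20 of mature colonocytes was 1.19-fold higher without overlap.

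Colon differentiation genes went both ways. Of 45 goblet and colonocyte genes 16 were listed, 7 higher and 9 lower, and 3 rose (CEACAM5, CEACAM6 and KLF4) while 1 fell. The carcinoembryonic antigens CEACAM5 and CEACAM6, glycoproteins of the apical surface, both rose. CEACAM5 measured 7.4, 5.99 and 5.998 TPM with ESC CM and 10.8, 11.7 and 11.1 TPM with CRC-MPS CM, a rise of 1.73-fold (limma adjusted p = 0.0239). CEACAM6 measured 21.9, 18.1 and 20.6 TPM with ESC CM and 30.8, 35.5 and 33.2 TPM with CRC-MPS CM, a rise of 1.64-fold (limma adjusted p = 0.0176). Their sequences are close, and reads may be shared between them. REG4, a lectin of goblet and enteroendocrine cells, measured 12.4, 11.6 and 12.4 TPM with ESC CM and 7.66, 7.02 and 8.52 TPM with CRC-MPS CM and fell 1.57-fold (limma adjusted p = 0.0378). These calls held in 2 of 6 refits for CEACAM5 (highest adjusted p = 0.115, without ESC CM replicate 2), in 2 for CEACAM6 (0.0864, without CRC-MPS CM replicate 2) and in 1 for REG4 (0.158, without CRC-MPS CM replicate 2). MUC17, a membrane mucin, was 1.83-fold higher at a low level, and CLDN2, the claudin of leaky tight junctions, was 1.46-fold lower at 31.9, 34 and 36 TPM with ESC CM and 26, 21.9 and 21.7 TPM with CRC-MPS CM. Wnt feedback and stem cell genes had 8 of 27 listed, 7 lower and 1 higher (median log2 ratio -0.33). Limma called none, with an unadjusted p under 0.05 for 5 lower and 1 higher gene. LGR5, the marker of crypt stem cells, measured 9.22, 8.74 and 9.27 TPM with ESC CM and 6.92, 6.18 and 6.1 TPM with CRC-MPS CM, 1.42-fold lower, and EPHB3 of the crypt base 1.39-fold lower, while AXIN2, the feedback inhibitor of Wnt, was 1.15-fold higher.

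A pair of ion channel genes fell. KCNE3, a potassium channel subunit of colonic crypts, measured 45.6, 48.4 and 43.9 TPM with ESC CM and 31.2, 29 and 25.9 TPM with CRC-MPS CM, a fall of 1.6-fold (limma adjusted p = 0.0136). GABRP, a GABA receptor subunit, measured 25, 26.6 and 26.8 TPM with ESC CM and 19.7, 15.2 and 13.7 TPM with CRC-MPS CM, a fall of 1.61-fold (limma adjusted p = 0.0477). In neither did the libraries of the media overlap. The KCNE3 call held in 3 of 6 refits (highest adjusted p = 0.0858, without ESC CM replicate 2) and that of GABRP in 1 (highest adjusted p = 0.186, without CRC-MPS CM replicate 2).

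In metabolism the calls were single genes of their lists. NAMPT, the rate-limiting enzyme of NAD salvage from nicotinamide, measured 159, 139 and 144 TPM with ESC CM and 194, 263 and 260.3 TPM with CRC-MPS CM and rose 1.62-fold (limma adjusted p = 0.0378), and it had the highest level with CRC-MPS CM of the genes that rose. Its call held in 1 of 6 refits (highest adjusted p = 0.14, without ESC CM replicate 2). QPRT, of the NAD route from tryptophan, was 1.41-fold lower, and the NAD list as a whole had 4 higher and 5 lower of 9 listed. NDRG1, a hypoxia and stress target, measured 22.8, 18.8 and 17.3 TPM with ESC CM and 37.2, 41 and 51.5 TPM with CRC-MPS CM and rose 2.2-fold (limma adjusted p = 0.0121), with the call held in 5 of 6 refits (highest adjusted p = 0.0562, without ESC CM replicate 2). Its control mean was 197 TPM, well above both media. The hypoxia list had 12 higher and 3 lower of 15 listed, and CA9, its carbonic anhydrase, was 1.49-fold lower, opposite to NDRG1. HIF1A was 1.29-fold higher at 70.3, 76.2 and 68.9 TPM with ESC CM and 94.1, 94.3 and 89.3 TPM with CRC-MPS CM. PLIN2, which coats lipid droplets, measured 7.6, 7.53 and 7.17 TPM with ESC CM and 12.3, 11.3 and 12.1 TPM with CRC-MPS CM and rose 1.6-fold (limma adjusted p = 0.0214). Fatty acid oxidation and PPAR target genes had 11 listed, 7 of them lower, and PLIN2 was the only call, held in 1 of 6 refits (highest adjusted p = 0.106, without ESC CM replicate 2). CTSL, a lysosomal protease, rose 1.76-fold, with 9.62, 8.62 and 9.56 TPM with ESC CM and 15.9, 15.8 and 17.2 TPM with CRC-MPS CM (limma adjusted p = 0.01004), and STEAP1, a metalloreductase of the cell surface, rose 2.21-fold, with 6.25, 6.64 and 5.83 TPM with ESC CM and 11.5, 14.1 and 15.7 TPM with CRC-MPS CM (limma adjusted p = 0.01004). The CTSL call held in 5 of 6 refits (highest adjusted p = 0.0592, without ESC CM replicate 2).

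Abundant housekeeping groups were lower by small amounts. Of 68 cytosolic ribosomal protein genes 29 were listed, 28 lower and 1 higher, with a median log2 ratio of -0.12 and 19 without overlap. RPS3 measured 2774, 2722 and 2822 TPM with ESC CM and 2672, 2381 and 2290.2 TPM with CRC-MPS CM, a ratio of 0.883. RPL4 measured 3636, 3706 and 3709 TPM with ESC CM and 3520.1, 3307 and 3243 TPM with CRC-MPS CM, a ratio of 0.911. None of the 29 passed 1.5-fold and limma called none, with an unadjusted p under 0.05 for 15 lower and 1 higher gene. In 28 of the 29, CRC-MPS CM replicate 1 was the library of its group nearest to the ESC CM mean. Of 73 gene names that match nuclear genes of the respiratory chain 21 were listed, 20 protein-coding genes and the processed pseudogene UQCRFS1P1. Of the 20, 19 were lower and 1 higher (median log2 ratio -0.14), the higher gene being CYCS, the electron carrier cytochrome c, with a ratio of 1.12. ATP5MC2 of ATP synthase and NDUFB7 of complex I were 1.23-fold and 1.23-fold lower. Limma called none of them, with an unadjusted p under 0.05 for 14 of the lower genes and 0 of the higher. No mitochondrially encoded gene was listed. The listed respiratory chain genes had a median GC content of 55.8%, in the range where listed genes were mostly lower, and the ribosomal protein genes one of 50.5%, and the part of base composition in either list was not tested beyond the following. After removal of the GC trend 25 ribosomal protein genes and 15 respiratory chain genes were lower without overlap, against 19 and 14 before. After rescaling they numbered 27 and 16. Rescaling moved the median log2 ratio of all listed genes by -0.0956, so more lower genes follow from the shift itself, which is no check of these lists.

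DNA replication genes were also lower, by amounts under the fold limit. Of 45 members 17 were listed, 15 lower and 2 higher (median log2 ratio -0.21), 11 of the lower without overlap. Limma called none, with an unadjusted p under 0.05 for 10 lower and 2 higher genes. LIG1, the ligase of lagging strands, measured 71.7, 81 and 89.7 TPM with ESC CM and 69.2, 60.7 and 62.3 TPM with CRC-MPS CM, 1.26-fold lower, and the helicase subunits MCM5 and MCM6 were 1.24-fold and 1.2-fold lower. Of 45 mitotic genes 3 were listed, all under that fold and with no unadjusted limma p under 0.05. CDKN1A, the cyclin-dependent kinase inhibitor p21, was 1.79-fold higher at 23.6, 20.7 and 10.1 TPM with ESC CM and 28.1, 32.1 and 37.3 TPM with CRC-MPS CM without a call. HIST1H1C, a linker histone whose RNA can be polyadenylated, measured 22.8, 19.97 and 20.1 TPM with ESC CM and 42.7, 32.8 and 39.7 TPM with CRC-MPS CM and rose 1.83-fold (limma adjusted p = 0.0136), with the call held in 3 of 6 refits (highest adjusted p = 0.0796, without ESC CM replicate 2).

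Some of the largest ratios rested on few reads or on genes of uncertain assignment. MIR573, a microRNA entry, had the lowest ratio of the non-overlapping genes above 5 TPM, at 44.6, 17.2 and 25.2 TPM with ESC CM and 0, 4.01 and 4.32 TPM with CRC-MPS CM, but the authors' mean normalized count was only 3.71 over the 6 libraries, against a median of 1457 over listed genes. A short entry turns few reads into many TPM. SNHG25, a small nucleolar RNA host gene, fell 1.87-fold with a mean normalized count of 30.5. CLIP4, a microtubule-binding protein, had the highest ratio of the non-overlapping genes above 5 TPM, with 12.9, 10.9 and 6.01 TPM with ESC CM and 23.2, 28 and 37.8 TPM with CRC-MPS CM, a rise of 2.99-fold (limma adjusted p = 0.0361). CALB1, a calcium buffer, measured 5.51, 2.65 and 4.43 TPM with ESC CM and 13, 8.41 and 11.3 TPM with CRC-MPS CM and rose 2.59-fold (limma adjusted p = 0.0421). The calls held in 1 of 6 refits for MIR573 (highest adjusted p = 0.142, without ESC CM replicate 3), in 3 for SNHG25 (0.101, without ESC CM replicate 3), in 3 for CLIP4 (0.112, without CRC-MPS CM replicate 2) and in 2 for CALB1 (0.141, without CRC-MPS CM replicate 3).

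Markers of colon epithelium were present, most of them at lower levels with either medium than in control. Of 15 markers 8 were listed, 6 lower and 2 higher with CRC-MPS CM (median log2 ratio -0.17), with 1 called, CEACAM5. The 8 summed to between 9026 and 9514 TPM with ESC CM and between 7905 and 9282 TPM with CRC-MPS CM, led by KRT8 and KRT18. CDX2, a transcription factor of intestinal identity, averaged 10.9 TPM in control, 3.65 TPM with ESC CM and 2.96 TPM with CRC-MPS CM. LGALS4, a galectin of the gut lining, averaged 1266, 533 and 514 TPM in the same order, KRT20 averaged 1151, 460 and 548 TPM, and CDH1, E-cadherin, 231, 126 and 132 TPM. EPCAM, an epithelial adhesion molecule not listed for this pair, went the other way at 535, 648 and 666 TPM. CEACAM5 did so too, at 4.4, 6.46 and 11.2 TPM. CDX1, which has levels only for ESC CM and control, was also higher with ESC CM (mean 2.49 TPM) than in control (1.2 TPM).

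Of 13 adipocyte markers only PNPLA2, a lipase that many cells express, was listed, and none of the 14 stromal, 12 leukocyte and 10 endothelial markers was. ADIPOQ, LEP and PLIN1 of adipocytes and COL1A2, COL3A1 and DCN of stromal cells were in none of the 3 tables, so no level can be given for them. PLIN4, CIDEC, PNPLA2, GPD1 and AQP7 of adipocytes summed to 83.2 to 97.4 TPM with CRC-MPS CM and 175 to 184 TPM in control. COL1A1, FBN1 and TAGLN of stromal cells overlapped between these groups. TEK of endothelium, near 0, was higher with CRC-MPS CM (mean 0.269 TPM) than in control (0.0655 TPM), without overlap. Against control, ESC CM had higher LIPE and TEK, and lower VWF, ESAM and the same 5 adipocyte genes. The leukocyte sum of the control tables was mostly LYZ, a lysozyme that gut epithelium can make, at 1742 to 1797 TPM with ESC CM and 1667 to 1704 TPM with CRC-MPS CM. CD163, a scavenger receptor of macrophages, was near 0 but higher with CRC-MPS CM (0.309 to 1.56 TPM) than in control (0.0361 to 0.253 TPM), without overlap. ITGAM, the integrin CD11b of myeloid cells, lay between 0.983 and 1.84 TPM with CRC-MPS CM and between 0.451 and 1.095 TPM in control. The table of ESC CM against control lists neither, so they cannot be compared between the media. CD68, a further marker of the leukocyte list, went the other way without overlap. It lay between 10.5 and 11.2 TPM with CRC-MPS CM and between 22.1 and 24.9 TPM in control. With ESC CM it lay between 7.89 and 10.99 TPM, a range that overlaps that of CRC-MPS CM. Carry-over of RNA from the source of the medium was not tested beyond this.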

How the data were processed

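RNA of HT29 cells was sequenced as paired-end libraries of total RNA. Per the labels, reads were processed against hg38 with tools that include STAR 2.6.1d, kallisto 0.46.0 and DESeq2 (no version given). The authors deposited TPM per gene and library, with a mean normalized count over the libraries compared (unit signal), and kept only genes with an unadjusted p under 0.05. Their own fold changes, standard errors, test statistics, p-values and adjusted p-values were not used. Read totals are not given, so the depth is unknown and no counting interval can be given. The labels and the study's methods name different RNA extraction kits.

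Spreadsheet dates had replaced 4 gene names, which were dropped. Directions and folds are ratios of mean TPM. The 3 libraries of each medium were compared with limma 3.58.1 in R 4.3.3 (empirical Bayes with a mean trend) on log2(TPM + 1), which understates the change of low genes, with Benjamini-Hochberg adjustment over 11664 genes, and the code was tested on simulated data. Since the table was selected on this same contrast, adjusted p-values are no independent evidence. Other pseudocounts, level and fold limits, scalings, a replicate block, a GC correction and leaving out each library were tried. Promoters were RefSeq windows (GRCh38.p14), matched by symbol for 2184 genes. Python 3.11.15, pandas 2.3.3, numpy 2.4.6 and matplotlib 3.10.9 were used.

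Genes were named by rule: the 6 qPCR genes, the 15 largest and 15 smallest ratios among non-overlapping genes of at least 5 TPM, the 10 most abundant past 1.5-fold, and in each list up to 5 non-overlapping members with the largest ratios and up to 2 of the most abundant. Members and lists were chosen with earlier results of these data known. Some lists share members, such as CEBPB in the IL-6 and ATF4 lists and SLC7A11 and SLC3A2 in the NRF2 and ATF4 lists.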

Additional observations from a re-analysis of the deposited data

How the results depend on the processing

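The counts of calls depended on the settings more than the folds of single genes did. The main counts were 56 higher and 16 lower. Adjusting over the listed genes alone gave 198 and 72, a fold over 2 gave 26 and 5, and a mean of at least 10 TPM gave 26 higher. Rescaling by the median of ratios gave 34 higher. Leaving out 1 library gave between 17 and 173 higher and between 3 and 72 lower. The highest counts came without CRC-MPS CM replicate 1, and with ESC CM or CRC-MPS CM reduced to a pair the spread is estimated from 5 libraries. Same-numbered libraries did not deviate together (correlations of -0.234, -0.0919 and -0.356), so the numbers were not taken as pairs, and the replicate block gave 24 higher and 5 lower. Genes past 1.5-fold without overlap numbered 212 higher and 76 lower. A mean of at least 10 TPM left 55 and 12, a fold over 2 left 94 and 33, and leaving out 1 library gave 194 to 278 and 75 to 117, the last without CRC-MPS CM replicate 1. The GC correction and the lists without single libraries were chosen after seeing the data. Of the 94 genes named with values none changed direction under rescaling, medians in place of means or any left-out library. Rescaling moved the median log2 ratio of 23 of 41 lists by more than their spread and turned its sign in 3, xenobiotic conjugation (0.09 to -0.0032), ribosome biogenesis (0.04 to -0.05) and tight junctions and keratins (0.03 to -0.06). Under rescaling the higher genes without overlap went from 17 to 13 in the unfolded protein response list and from 12 to 8 among matrix and adhesion genes. They went from 8 to 7 in the IL-6 list, 10 to 9 in the NF-kB list and 11 to 10 in the AP-1 list. The NRF2 list went from 17 to 16, and ERK feedback stayed at 6. Without ESC CM replicate 3 the interferon list had 4 higher and 15 lower genes in place of 3 and 16. Rescaling moved all listed genes together, and its part in these changes follows from that move. Other causes of the shifts were not tested. Genes outside the table have levels only where both control tables list them, and with 3 libraries a side differences of low genes were not resolved.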

Other observations

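Of the 17 calls that held whichever library was left out, 9 lie outside the rule for named genes, and these were chosen after their values were seen. TNC, the matrix glycoprotein tenascin C, measured 1.68, 1.94 and 1.45 TPM with ESC CM and 5.58, 5.49 and 4.79 TPM with CRC-MPS CM and rose 3.13-fold (limma adjusted p = 0.00308). TUBB3, a beta-tubulin best known from neurons, measured 16.5, 15.6 and 14.2 TPM with ESC CM and 29.97, 30.6 and 29 TPM with CRC-MPS CM and rose 1.94-fold (limma adjusted p = 0.00332). SDCBP2, syntenin-2, rose 1.79-fold, with 20.8, 18.2 and 17.1 TPM with ESC CM and 31.9, 33.4 and 35 TPM with CRC-MPS CM (limma adjusted p = 0.00749). SERPINB3, squamous cell carcinoma antigen, CHRD, the BMP antagonist chordin, and ERO1B, an oxidase of the endoplasmic reticulum, rose 6.21-fold, 2.65-fold and 5.32-fold, all from means under 5 TPM with ESC CM.

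Genes differed in direction by chromosome as they did by base composition. On chromosome 18, 28 of 29 non-overlapping genes were higher with CRC-MPS CM, and on chromosome 13, 36 of 41, at median GC contents of 41.25% and 42.05% over the listed genes. On chromosome 19, 75 of 106 were lower, at a median GC content of 58.45%. Over all listed genes 1041 of the 1800 non-overlapping genes were higher, and these chromosomes were picked as extremes after their values were seen. The order by GC content was not strict. Chromosome 4, at a median of 40.86%, had 45 higher and 11 lower, and chromosome X, at 46.99%, had 28 of each. Long noncoding genes numbered 102, of which 25 were higher and 15 lower past 1.5-fold without overlap. Among 50 pseudogenes 4 were higher and 11 lower past it.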
